A study of Caenorhabditis elegans with 2 samples.

Results

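Divergent promoter peaks of LIN-13 are peaks whose summit lies close to the 5' ends of genes that are transcribed away from each other. The peaks come from chromatin immunoprecipitation with sequencing (ChIP-seq) of a tagged LIN-13, done on intact Caenorhabditis elegans larvae of stage L1, the first after hatching. A summit, the position of highest enrichment in a peak, counted as divergent when it lay on an autosome within 500 bp of the 5' ends of protein-coding genes on both strands. Summits within 500 bp of the 5' end of a tRNA, snoRNA or snRNA gene were left out. Of 2333 reproducible peaks, 1994 lay on autosomes, 1164 of these were promoter peaks, and 366 were divergent. The other promoter peaks were 782 whose summit was near 1 gene only, called single-gene peaks here, and 16 near several genes of 1 strand.

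The design has 1 group with 2 biological replicates of strain OP49. Both carry the integrated transgene wgIs49, in which lin-13 is fused to TY1, EGFP and FLAG tags beside an unc119 rescue copy, in an unc119(ed3) background. The animals were mixed in sex and their exact age is unknown. No untagged strain was analysed here, all cell types of the larva were pooled, and nothing was compared between conditions, so values describe peaks of this set with the spread between the replicates.

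LIN-13 has many zinc fingers and belongs to the class B synthetic multivulva (synMuv B) proteins, a group of chromatin and transcription regulators that keep vulval fate and germline genes off in cells where they do not belong. The DREAM complex, built around the Rb homolog LIN-35, an E2F factor and LIN-54, belongs to the same class. C. elegans genes are packed closely, and neighbours arranged head to head share a short stretch of DNA from which both are transcribed outward. Many C. elegans messages are trans-spliced, and for those the annotated 5' end is not the true start of transcription but lies inside the primary transcript.

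The 10 strongest divergent sites on chromosomes II to V that have their summit between annotated genes, and the 3 sites beside other synMuv genes, are printed here because the later comparisons of words refer to them. Each stretch is the plus strand of WBcel235 (the assembly of ce11) around the summit, from the RefSeq copy of that assembly, up to 121 bp and cut back to what lies between both 5' ends. Capitals mark any of 6 words searched on both strands: E2F-like sites (TTCCCGCC, TTTCCCGC, TTCGCGCC, TTGGCGCC or TTCCCGCG), the cell cycle homology region or CHR (TTTGAA or TTCGAA), the GC-box (CCGCCC), the T-tract (TTTTTTTT), and the hexamers ACCGTA and AAATCG. A pair is written with the minus-strand gene before the plus-strand gene.
rpl-15/K11H12.8, chrIV:654864-654984: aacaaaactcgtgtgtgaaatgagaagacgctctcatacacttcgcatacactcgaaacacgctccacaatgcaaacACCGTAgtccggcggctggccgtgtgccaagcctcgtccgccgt
syf-2/K04G7.1, chrIII:7162445-7162565: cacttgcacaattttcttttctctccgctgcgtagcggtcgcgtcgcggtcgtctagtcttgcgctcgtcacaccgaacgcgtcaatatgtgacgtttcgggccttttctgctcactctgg
rpl-20/Y17G9B.5, chrIV:4750005-4750125: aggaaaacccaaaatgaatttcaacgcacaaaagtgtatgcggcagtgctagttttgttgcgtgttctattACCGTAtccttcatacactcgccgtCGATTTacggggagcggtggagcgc
rpl-12/lin-54, chrIV:13240652-13240738: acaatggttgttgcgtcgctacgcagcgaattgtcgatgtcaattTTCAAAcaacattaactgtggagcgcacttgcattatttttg
drr-2/set-16, chrIII:13643690-13643810: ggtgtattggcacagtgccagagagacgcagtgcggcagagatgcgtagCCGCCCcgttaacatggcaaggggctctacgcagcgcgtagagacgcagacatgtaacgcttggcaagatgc
wapl-1/htz-1, chrIV:4445849-4445969: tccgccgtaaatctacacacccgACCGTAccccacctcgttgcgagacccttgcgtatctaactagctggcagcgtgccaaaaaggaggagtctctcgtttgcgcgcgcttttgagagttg
eef-1A.1/rfc-4, chrIII:6972061-6972181: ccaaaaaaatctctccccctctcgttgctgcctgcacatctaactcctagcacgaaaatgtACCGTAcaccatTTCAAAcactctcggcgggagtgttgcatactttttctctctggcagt
T26A8.4/pdtf-1, chrIV:8432904-8433024: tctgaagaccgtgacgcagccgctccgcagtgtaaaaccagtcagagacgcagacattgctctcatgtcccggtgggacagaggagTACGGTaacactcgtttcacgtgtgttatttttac
polh-1/rps-22, chrIII:1950374-1950494: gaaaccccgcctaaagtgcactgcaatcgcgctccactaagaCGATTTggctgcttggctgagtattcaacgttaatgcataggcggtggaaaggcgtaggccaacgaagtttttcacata
mig-5/cct-1, chrII:8185136-8185256: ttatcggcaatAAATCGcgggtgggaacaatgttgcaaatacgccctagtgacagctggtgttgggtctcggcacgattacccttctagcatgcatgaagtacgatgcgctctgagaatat
epc-1/Y111B2A.12, chrIII:12608736-12608856: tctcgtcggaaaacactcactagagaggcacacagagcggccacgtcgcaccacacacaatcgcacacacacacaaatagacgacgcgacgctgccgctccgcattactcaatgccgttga
trr-1/C47D12.2, chrII:11676090-11676210: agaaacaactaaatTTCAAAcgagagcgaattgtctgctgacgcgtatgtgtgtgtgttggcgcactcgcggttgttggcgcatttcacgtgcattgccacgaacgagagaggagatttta
M04B2.4/gfl-1, chrIV:11521122-11521242: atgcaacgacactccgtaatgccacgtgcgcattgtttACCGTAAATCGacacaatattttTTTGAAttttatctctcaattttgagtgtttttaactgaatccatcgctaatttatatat

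The strongest divergent peak lay between rpl-15, a protein of the large ribosomal subunit, and K11H12.8, annotated as a growth hormone-inducible transmembrane protein (chrIV:654809-655022). Its pooled signal, the peak caller's score from both replicates together, was 624, and its signal was 298 in replicate 1 and 330 in replicate 2. Next was the site between syf-2, a pre-mRNA splicing factor, and K04G7.1 (chrIII:7162396-7162620), with a pooled signal of 546 and signals of 278 in replicate 1 and 268 in replicate 2. The site between rpl-20, another large subunit protein, and Y17G9B.5 (chrIV:4749973-4750179) had a pooled signal of 546, with 250.5 in replicate 1 and 292 in replicate 2. These were the 3 highest divergent signals in the pooled list, and the replicates kept each of them far above the members' medians of 44.7 in replicate 1 and 49.9 in replicate 2.

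The fourth strongest divergent site joined a ribosomal protein gene to a DREAM subunit, rpl-12 and lin-54, with a pooled signal of 459, a signal of 207 in replicate 1 and 249.9 in replicate 2. The sites rps-19/hsr-9 (small ribosomal subunit) and drr-2/set-16 followed with pooled signals of 439 and 413. At wapl-1/htz-1, where htz-1 codes for the histone variant H2A.Z, the pooled signal was 364, with 171 in replicate 1 and 196 in replicate 2. The next sites were C47E8.4/hsp-90, beside the gene of the heat shock protein HSP90, with 356, rps-20/ekl-4 with 349.9, and ndk-1/F25H2.6, beside a nucleoside diphosphate kinase gene, with 341.

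The 11th to 20th strongest divergent sites had pooled signals between 291 and 338. They were eef-1A.1/rfc-4, which joins a translation elongation factor to a subunit of the replication clamp loader, Y71H2AM.20/cox-6B, gpap-1/scpr-1, T26A8.4/pdtf-1, polh-1/rps-22, mcrs-1/atp-1, mig-5/cct-1, rps-15/F36A2.9, sec-61.B/trap-3 and rab-18/kbp-4. The site sec-61.B/trap-3 lies between genes that both act in protein import into the endoplasmic reticulum, since sec-61.B codes for a subunit of the translocation channel and trap-3 for a translocon-associated protein. The strongest divergent site of each autosome was rps-19/hsr-9 on I, mig-5/cct-1 on II, syf-2/K04G7.1 on III, rpl-15/K11H12.8 on IV and C47E8.4/hsp-90 on V. At the other end of the range, ddb-1/M18.6, tcer-1/ZK1127.5 and tipn-1/ubxn-1 had pooled signals of 49.1, 49.0 and 48.4.

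Divergent peaks were somewhat stronger than single-gene peaks in the pooled list and in both replicates. The median pooled signal was 93.3 at divergent peaks (quartiles 68.5 and 143, range 48.4 to 624) and 80.7 at single-gene peaks (quartiles 60.9 and 127, range 48.3 to 871), a ratio of 1.16. The corresponding medians were 44.7 and 39.5 in replicate 1 (ratio 1.13), and 49.9 and 43.7 in replicate 2 (ratio 1.14). The ranges overlapped over almost their whole length, and the strongest promoter peak of all was a single-gene peak. Within the stronger part of the reproducible set alone, the pooled ratio was 1.01. Among promoter peaks, the divergent share was 36.4% (107 of 294, 95% exact binomial interval 30.9 to 42.2) among the 500 strongest peaks of the reproducible set, and 34.6% among the next 500. It was 34.1% among the 500 after those and 23.3% (84 of 361, 19.01 to 27.98) among the remaining 833. Among the 100 strongest it was 32.3% (21 of 65, 21.2 to 45.1). Intervals cover counting error only, and with 1 group of samples no test between groups exists.

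Nearly all divergent peaks had a call in both replicate lists, which are not cut at a significance limit. Each list held 30000 calls, of which 2475 in replicate 1 and 5192 in replicate 2 had a q-value under 0.05. A match by position alone can therefore be to a weak call. A call within 100 bp of the summit was present in both replicate lists for 357 of 366 divergent peaks (97.5%, interval 95.4 to 98.9) and 746 of 782 single-gene peaks (95.4%, 93.7 to 96.8), against 94.0% of all autosomal peaks. Calls with a q-value under 0.05 in both replicates were present for 319 divergent peaks (87.2%, 83.3 to 90.4) and 631 single-gene peaks (80.7%, 77.7 to 83.4), against 78.1% of all autosomal peaks. The intervals of divergent and single-gene peaks overlap for the first measure and barely for the second. The set was itself selected for agreement between replicates by the irreproducible discovery rate (IDR), so these shares are not an independent check.

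**Figure D1:**
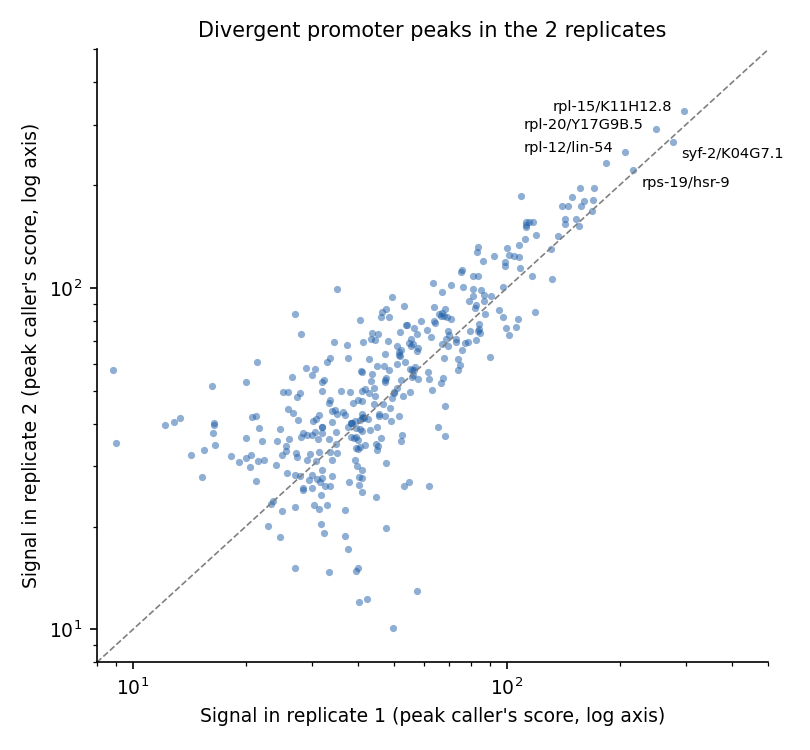
Signal of the 357 divergent peaks called in both replicates, in replicate 1 (x axis) and replicate 2 (y axis), both as the peak caller's score on a log axis; each point is a peak, the dashed line marks equal values, and the 5 strongest peaks are named. The named peaks lie near the line at the upper end, while points at low signal spread widely on both sides of it.

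Across these 357 peaks, signal was ranked alike in the replicates, with Spearman's rho at 0.769, and for the 746 single-gene peaks rho was 0.701. Both are descriptions across peaks of the same pair of libraries. The largest disagreements were at sites with pooled signals of 50.1 to 95.1. At sftb-1/R10E4.1, beside a gene for a splicing factor 3B subunit, the signal was 8.82 in replicate 1 and 57.6 in replicate 2. The replicate 1 call there lay 100 bp from the summit, at the matching limit, and ranked 29416 among 30000 calls. It may not measure this site. At kbp-3/nurf-1 and F58G1.2/wago-4, replicate 2 was also higher, by 1.97 and 1.71 on the log2 scale. The reverse held at ubr-4/ssb-1, with 49.6 in replicate 1 and 10.1 in replicate 2, and at C01A2.1/W05H12.4 and lst-6/lst-5, where the log2 ratios of replicate 2 to replicate 1 were -2.16 and -1.79.

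A call was missing in replicate 1 at 5 divergent peaks and in replicate 2 at 4. The strongest of these were 1 of the peaks at supr-1/dnj-28, with a pooled signal of 92.1 and no call within 100 bp in replicate 1, and F40F11.3/mig-38, with 74.2 and none in replicate 2. Also missing in 1 replicate were dnj-29/ndua-2, icl-1/srh-2 and isp-1/islo-1. All 9 had a pooled signal below the members' median of 93.3.

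Head-to-head gene pairs carried LIN-13 summits far more often than other genes did. Of 1661 autosomal pairs whose 5'-most ends lie at most 1000 bp apart, 400 had a summit between the ends, which is 24.1% (interval 22.04 to 26.2). Counted by gene, 799 of 3322 genes in such pairs had a summit within 500 bp (24.1%, 22.6 to 25.5), against 716 of 13920 other autosomal genes (5.14%, 4.78 to 5.52) and 8.79% of all autosomal genes. A summit between a pair counts for both of its genes when it is near both, so the pair genes are not independent of each other. That counting also raises the share of pair genes by itself, since each can be counted through either promoter. How much of the difference it makes up was not tested. Genes at divergent peaks made up 4.28% of all autosomal genes (738 of 17242).

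The share varied with the distance between the genes. A summit lay between 12.8% of pairs with ends up to 200 bp apart, 30.7% from there to 400 bp, 29.3% to 600 bp, 24.8% to 800 bp and 14.5% to 1000 bp. In tandem gaps, which separate genes on the same strand and hold 1 promoter in place of a pair, the shares over the same lengths were 1.19%, 7.10%, 8.69%, 5.80% and 4.87%, and 4.90% over all 4956 gaps. The shares were higher in pairs than in gaps at each length, with intervals that did not overlap. In C. elegans many short tandem gaps lie inside operons, where the downstream gene has no promoter of its own, and operons were not separated here.

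**Figure D2:**
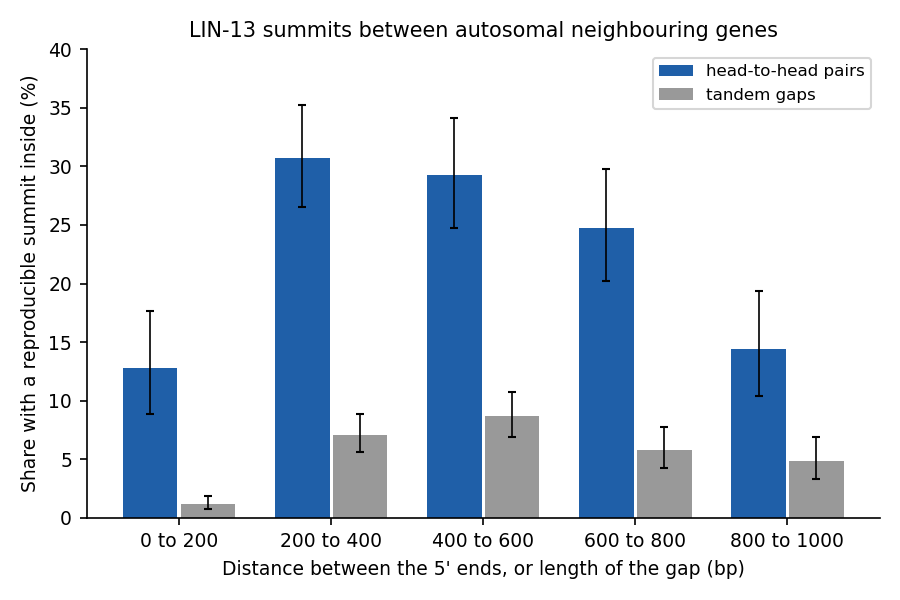
Share of autosomal head-to-head pairs (dark bars) and tandem gaps (grey bars) with a reproducible LIN-13 summit inside, in percent, by the distance between the 5' ends or the length of the gap in bp; error bars are 95% exact binomial intervals. Pairs over 200 and up to 400 bp apart had the highest share, 30.7%, against 7.10% of tandem gaps of that length.

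The share also differed between chromosomes. A summit lay between 34.8% of the pairs on chromosome III (29.4 to 40.6), 30.5% on I (25.5 to 35.9), 22.1% on IV (17.6 to 27.2), 19.1% on II (14.998 to 23.8) and 16.9% on V (13.5 to 20.9). The intervals of III and I overlap each other and lie above those of II and V. The divergent peaks themselves numbered 90 on I, 57 on II, 92 on III, 64 on IV and 63 on V. In the middle of the chromosomes (the central 1 of 3 equal stretches) lay 148 of 366 divergent peaks (40.4%) and 676 of 1661 pairs (40.7%), shares that differ by less than a percentage point.

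Divergent summits lay in the DNA between the genes rather than on either one. Of 366 summits, 340 (92.9%) fell between the pair of nearest 5' ends, and 361 pairs were head to head while 5 overlapped. The 5' ends were a median of 386.5 bp apart (quartiles 266 and 535). The summit was a median of 129.5 bp from the nearer end and 264 bp from the farther one. It was nearer the plus-strand gene at 185 peaks, nearer the minus-strand gene at 179 and equally far from both at 2. The rule caps these distances at 500 bp on each side, so they describe the members and do not compare them with other peaks.

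Between the ends, 246 of 340 summits lay in the central part, more than 25% of the separation away from both ends, and 94 lay closer to one of them. In pairs more than 500 bp apart the rule itself keeps summits away from the ends, so this share is partly set by it. The annotation placed 328 divergent summits between genes (89.6%, 86.0 to 92.5), 11 in introns (3.01%) and 27 in exons (7.38%). For single-gene peaks, 77.1% lay between genes (74.0 to 80.01), 14.3% in introns and 8.57% in exons, and the median summit lay 177 bp upstream of the 5' end. The widest separations were at snf-6/mtg-1 (947 bp, pooled signal 69.4), rtfo-1/K09G1.1 (901 bp, 67.9) and sqv-3/vha-1 (900 bp, 150.3). Overlaps were longest at D2005.3/D2005.4 (93 bp, 92.7), pus-1/ctps-1 (74 bp, 108) and F42A10.5/abcf-3 (74 bp, 92.8), where the summit lay downstream of the 5' end of one gene and upstream of the other's.

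**Figure D3:**
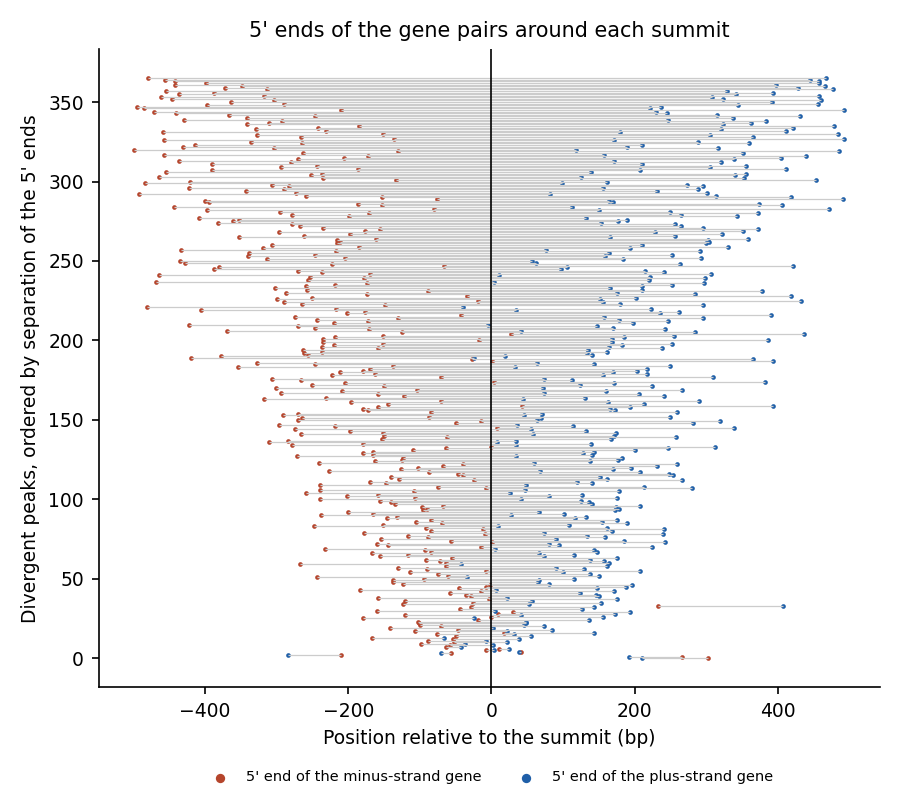
Position of the minus-strand gene's 5' end (red) and the plus-strand gene's 5' end (blue) relative to the summit (x axis, bp, summit at 0) for each of the 366 divergent peaks, ordered from the shortest separation at the bottom to the longest at the top. The summit lies between both ends at 340 peaks, and the few pairs at the bottom with both ends on 1 side of the summit are among the 26 where it does not.

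Signal hardly changed with the geometry. The median pooled signal was 92.8 for the 47 pairs up to 200 bp apart, 87.5 from there to 300 bp, 90.1 to 400 bp, 95.8 to 500 bp, 99.5 to 700 bp and 101.03 for the 22 wider pairs. The Spearman correlation of separation with signal was 0.0843 over 366 peaks, and that of the distance to the nearer end was 0.0941. GC content within 100 bp of the summit on each side had a larger one, 0.304. Every pair had 1 peak except supr-1/dnj-28 (chrI:2996025-2996348 and chrI:2996244-2996567), whose peaks overlap and had pooled signals of 92.1 and 92.9. More than a pair of genes lay within 500 bp at 8 peaks, among them rbc-2/ndua-8 with a pooled signal of 246.

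The 500 bp limit cut through a continuous range. Just inside were simr-1/C06A5.3, with a farther end 499 bp away, rsr-1/sri-5 at 495 bp and epc-1/Y111B2A.12 at 493 bp, with pooled signals of 155, 182 and 207. Just outside were peaks at szy-20, with an end of C18E9.5 on the other strand 502 bp away, at unc-40 (npp-7, 504 bp) and at clic-1 (srr-10, 505 bp), with pooled signals of 145, 128 and 52.03. There were 65 divergent peaks with a farther end over 400 bp away, and 37 single-gene peaks with an opposite-strand end past the limit but within 600 bp. With a limit of 250 bp, 164 peaks would count as divergent.

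Ribosomal protein genes stood at 31 divergent sites, and the summit was usually closer to the partner gene than to the ribosomal one. At 29 of these sites one gene of the pair codes for a ribosomal protein. The summit lay a median of 328 bp upstream of the ribosomal gene (quartiles 372 and 264) and 202 bp upstream of its partner (quartiles 305 and 156), and it was nearer the ribosomal gene at 7 sites of 29. At rpl-31/sac-2 it was 271 bp from rpl-31 and 34 bp from sac-2, and at ints-11/rpl-10 it was 386 bp from rpl-10 and 17 bp from ints-11. The opposite occurred at rpl-12/lin-54, 27 bp from rpl-12 and 366 bp from lin-54, and at rps-9/lsm-1, 235 bp from rps-9 and 353 bp from lsm-1.

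The long distance to ribosomal genes was also present at single-gene peaks, where no other protein-coding gene had a 5' end within 500 bp. Such peaks can still have an opposite-strand 5' end just past that limit. At the 26 single-gene peaks of ribosomal protein genes the summit lay a median of 286.5 bp upstream, and at the other 756 single-gene peaks 168.5 bp upstream. At divergent sites without a ribosomal gene, the median over both ends was 175 bp upstream. The median pooled signal was 153 at the 29 divergent ribosomal sites (69.0 in replicate 1 and 83.8 in replicate 2) and 89.5 at the 335 divergent sites without such a gene (43.3 in replicate 1 and 48.3 in replicate 2). The 26 single-gene ribosomal peaks had a median of 144, near that of the divergent ones. In both settings the ribosomal sites were stronger than the other sites in each replicate.

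**Figure D4:**
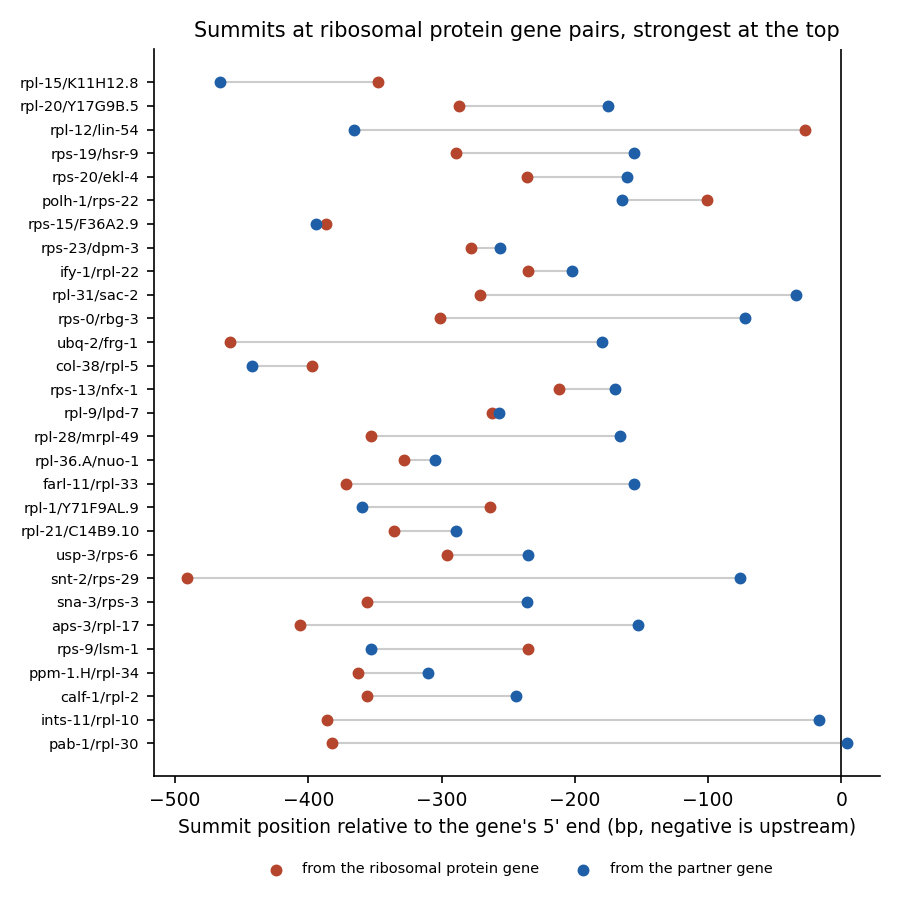
Position of the summit relative to the 5' end of the ribosomal protein gene (red) and of its partner (blue), in bp with negative values upstream, at the 29 divergent sites with 1 ribosomal protein gene, ordered by pooled signal with the strongest at the top. The red point lies left of the blue one, farther upstream, at 22 of 29 sites.

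At 2 divergent sites both genes code for ribosomal proteins. The summit between rpl-39 and rps-30 lay 246 and 253 bp from their 5' ends, with a pooled signal of 179, a signal of 76.1 in replicate 1 and 100.7 in replicate 2. The summit between rps-14 and rpl-36 lay 242 and 421 bp away, with 177 pooled, 95.2 in replicate 1 and 86.1 in replicate 2. Both sites were in the stronger part of the divergent peaks. Among ribosomal protein genes, 36 of 49 in head-to-head pairs (73.5%) and 23 of 32 others (71.9%) had a summit within 500 bp. These shares lay close together, unlike those over all genes (24.1% and 5.14%).

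In every other gene list except the histones, the genes in head-to-head pairs had summits more often than the rest of the list. In several lists the difference rests on few genes. Genes inside operons were not separated from the others. A summit near both genes of a pair counts for each, which by itself raises the share of pair genes. How far such shared summits account for the order was not tested. Among splicing and mRNA processing genes, 17 of 32 pair genes and 8 of 37 others had one; the strongest sites were syf-2/K04G7.1, pabp-2/C17E4.6 (190.3 pooled) and clu-1/prp-40 (187). Among respiratory chain and ATP synthase genes, 13 of 21 pair genes and 8 of 23 others had one, and the strongest listed genes were cox-6B (332 pooled), atp-1 (310.1) and atp-2 (154). Proteasome genes had one at 11 of 20 and 6 of 13, led by hsp-110/rpn-3 (251), pbs-1/K08D12.3 (171) and rpn-9/T06D8.9 (151). The lists are incomplete, since they go by gene symbol, and a site such as rbc-2/ndua-8 (246), beside a complex I subunit gene, falls outside the respiratory list. These lists hold genes used in every cell, and each was read against the 24.1% of all pair genes and 5.14% of all others.

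The cytosolic chaperonin CCT, which folds actin and tubulin, had the most one-sided arrangement. Of its 6 genes in pairs, 5 had a summit, and of its other 2, none did. The sites were mig-5/cct-1 (307 pooled), cct-8/Y55F3AR.2 (273), cct-6/alh-9 (150.2), T10B5.4/cct-7 (143) and cct-5/F25F2.1 (69.4). At all 5 the summit was nearer the partner than the CCT gene. The last site was uneven between replicates, with 47.6 in replicate 1 and 19.8 in replicate 2.

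Other lists of housekeeping function followed the same order with smaller counts. Translation factors had a summit at 13 of 21 pair genes and 6 of 17 others, with eef-1A.1/rfc-4, eef-1B.1/aco-2 (286 pooled) and ctf-4/eef-1G (265) the strongest. Mitochondrial ribosomal protein genes had one at 9 of 25 and 7 of 45, led by mrps-7/Y57G11C.3 (264), rpl-28/mrpl-49 (143) and vbh-1/mrpl-17 (115.4). DNA replication genes had one at 11 of 19 and 8 of 19, and nuclear pore and transport genes at 11 of 20 and 9 of 20, with npp-3/top-2 (269.6) and imb-1/mfsd-13.1 (148) at the top.

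Cell cycle and RNA interference genes also had divergent sites. Of genes for cyclins, their kinases and mitosis, 16 of 40 in pairs and 13 of 61 others had a summit, and cdk-5/kel-3 (197 pooled), orc-5/cyb-1 (145) and mdf-2/nduv-3 (138) were the strongest with a listed gene, while rab-18/kbp-4 (291), beside a kinetochore gene, and ify-1/rpl-22 (226), beside the securin gene, are outside this list. The RNA interference list goes by gene symbol, so the place of ekl-4 in it does not establish a role in that process. Of the listed genes, 9 of 22 in pairs and 5 of 27 others had a summit, led by rps-20/ekl-4, fib-1/mut-15 (183) and rde-4/cox-14 (145). RNA polymerase II and Mediator genes had one at 5 of 12 and 9 of 49, with rpb-7/Y54E10BR.2 (106), ift-43/mdt-26 (104) and pas-4/rpb-3 (100.46). Aminoacyl-tRNA synthetase genes had one at 3 of 11 and 4 of 21, with ears-2/uncp-18 (151), tars-1/kel-1 (61.5) and nars-1/nduf-6 (50.4).

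Histone, chemoreceptor, lectin and F-box genes in pairs had summits less often than the 24.1% of all pair genes. The counts for nuclear hormone receptors and collagens were too small to place against it. Core histone genes are mostly arranged head to head, and 5 of 61 paired histone genes (8.20%) had a summit, at wapl-1/htz-1, his-67/his-68 (128 pooled) and his-31/his-32 (85.4). Histone copies are near identical in sequence, so signal at them may be shared between copies. How this affects the share, in either direction, was not tested. Chemoreceptor genes had one at 3 of 125 in pairs and 0 of 1121 others, including rsr-1/sri-5 (182) and icl-1/srh-2 (67.8). Genes for C-type lectins or F-box proteins had one at 3 of 132 and 3 of 410, including fbxb-85/hex-3 (234) and fbxa-67/fbxa-11 (50.3), and nuclear hormone receptor genes at 3 of 18 and 6 of 229, including dnj-19/nhr-47 (177) and H12C20.7/nhr-68 (76.9).

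Cuticle collagen genes had a summit at 4 of 20 in pairs and 1 of 127 others. The 4 sites were col-38/rpl-5 (174 pooled), col-71/Y49F6B.2 (138), hrpf-2/bli-6 (119) and col-2/ndc-80 (111). At all 4 the summit was nearer the partner gene, among them rpl-5 and ndc-80, which codes for a kinetochore protein. A summit near a gene of one list may thus lie closer to a partner outside it.

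Genes of the DREAM complex and the synMuv classes stood at 6 divergent sites. All 3 DREAM genes in head-to-head pairs had a summit, as did 4 of the 5 other DREAM genes. Over all autosomal genes the shares were 24.1% in pairs and 5.14% outside them. The sites were rpl-12/lin-54, lin-53/nra-2 and vps-51/lin-35. The summit was nearer the DREAM gene at 1 of these 3 sites, vps-51/lin-35. At rpl-12/lin-54 it lay 27 bp from rpl-12 and 366 bp from lin-54. The site of lin-53, which codes for a histone chaperone, had a pooled signal of 203, with 97.3 in replicate 1 and 100.4 in replicate 2. The site of lin-35, the Rb homolog, had 187 pooled, with 107 in replicate 1 and 81.2 in replicate 2. All 3 DREAM sites had signals over the members' median, in contrast to most of the synMuv ones.

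Among the synMuv genes, epc-1/Y111B2A.12, beside an enhancer of polycomb homolog, had 207 pooled, 83.3 in replicate 1 and 127 in replicate 2. The site of trr-1, a homolog of TRRAP, had 68.9 pooled, 41.0 in replicate 1 and 27.7 in replicate 2. The site of gfl-1, a YEATS domain protein gene, had 53.4 pooled, 20.1 in replicate 1 and 31.7 in replicate 2. Of synMuv genes, 4 of 6 in pairs and 5 of 20 others had a summit within 500 bp, against 24.1% and 5.14% over all genes.

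Over all lists together, 149 divergent peaks had at least 1 listed gene, with a median pooled signal of 109, and 217 had none, with 85.1. In 24 both genes were listed, often from different lists, and their median was 109.5. Besides those named above, they were rpl-36.A/nuo-1, spd-5/npp-6, snr-3/rsp-5, rnp-6/rde-10, rps-9/lsm-1, pbs-2/eif-6, rpn-5/scc-1, mrps-6/rpn-8 and emb-27/rrf-3. The pair snr-3/rsp-5 joins genes of the same list, a core spliceosomal protein and a splicing factor of the SR family, with signals of 28.1 in replicate 1 and 73.4 in replicate 2. The pair pas-4/rpb-3 joins a proteasome subunit to an RNA polymerase II subunit.

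The words linked to DREAM were about as common at divergent as at single-gene summits. An E2F-like site lay within 100 bp of the summit at 29 of 366 divergent peaks (7.92%, 5.37 to 11.2) and 66 of 782 single-gene peaks (8.44%, 6.59 to 10.6). It lay in 2.71% (1.87 to 3.79) of 1217 head-to-head pairs without a peak and in 3.61% of all 1661 pairs, with a window of the same length centred between the 5' ends. The CHR was in 58.2%, 53.6% and 60.7% of divergent, single-gene and peak-free windows, and in 59.2% of all pairs. The GC-box was in 9.84% (6.98 to 13.4), 9.34% and 5.67% (4.44 to 7.12), and in 6.20% of all pairs. Only for the E2F-like sites were the intervals of divergent windows and of pairs without a peak wholly apart among these words. With the divergent windows also centred between the 5' ends, the E2F-like share was 6.28% (4.02 to 9.28).

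One hexamer was more common at divergent than at single-gene summits. ACCGTA was within the window at 81 of 366 divergent peaks (22.1%, 18.0 to 26.7), at 77 of 782 single-gene peaks (9.85%, 7.85 to 12.2) and in 99 of 1217 pairs without a peak (8.13%, 6.66 to 9.81). Its share was 9.87% over all pairs. The word was picked after the data were seen, as the one of 2080 hexamers (a word and its reverse complement counted together), among those with 3 or more G or C, whose share at divergent peaks exceeded that at single-gene peaks most. The difference is therefore a description without a test. Without that restriction, words of A and T had a larger excess, led by AAAATA with 65.3% at divergent and 48.5% at single-gene peaks, but its share was also 61.1% in pairs without a peak. Among as many top calls of replicate 1 alone, the ACCGTA shares were 21.4% at divergent and 10.03% at single-gene peaks. Among those of replicate 2 alone they were 21.9% and 9.20%. Most divergent pairs in these lists are those of the full set, so the shares are not a separate check.

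The hexamer ACCGTA sat close to the summits. Of 84 copies in the windows of divergent peaks, 44 (52.4%) were within 25 bp of the summit, against 31 of 77 (40.3%) at single-gene peaks. In the sequences printed above it starts 1 bp to the right of the summit at eef-1A.1/rfc-4, 11 bp at rpl-20/Y17G9B.5, 17 bp at rpl-15/K11H12.8 and 26 bp, on the other strand, at T26A8.4/pdtf-1. It starts 37 bp to the left at wapl-1/htz-1 and 22 bp to the left at M04B2.4/gfl-1, where it runs into AAATCG as the joined word ACCGTAAATCG. The windows of syf-2/K04G7.1, rpl-12/lin-54, drr-2/set-16, polh-1/rps-22, mig-5/cct-1, epc-1/Y111B2A.12 and trr-1/C47D12.2 hold no copy.

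With the window moved from the summit to the middle between the 5' ends, 57 of 366 divergent peaks (15.6%, 12.01 to 19.7) still had ACCGTA. Of 164 head-to-head pairs with the hexamer in that central window, 62 (37.8%, 30.4 to 45.7) had a summit between the ends. Of 1497 pairs without it, 338 did (22.6%, 20.5 to 24.8). The word was picked at these same summits, so a difference in this direction follows in part from the choice. The hexamer was in 9 of the 20 strongest divergent peaks and 17 of the strongest 50, but its share did not fall steadily with rank. It was 9 of 50 in the next group, 27 of 100 after that, 11 of 100 in the group below and 17 of the last 66. Peaks with it had a median pooled signal of 106 and peaks without it 88.5. The medians were 46.9 and 44.3 in replicate 1, and 59.1 and 47.7 in replicate 2.

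**Figure D5:**
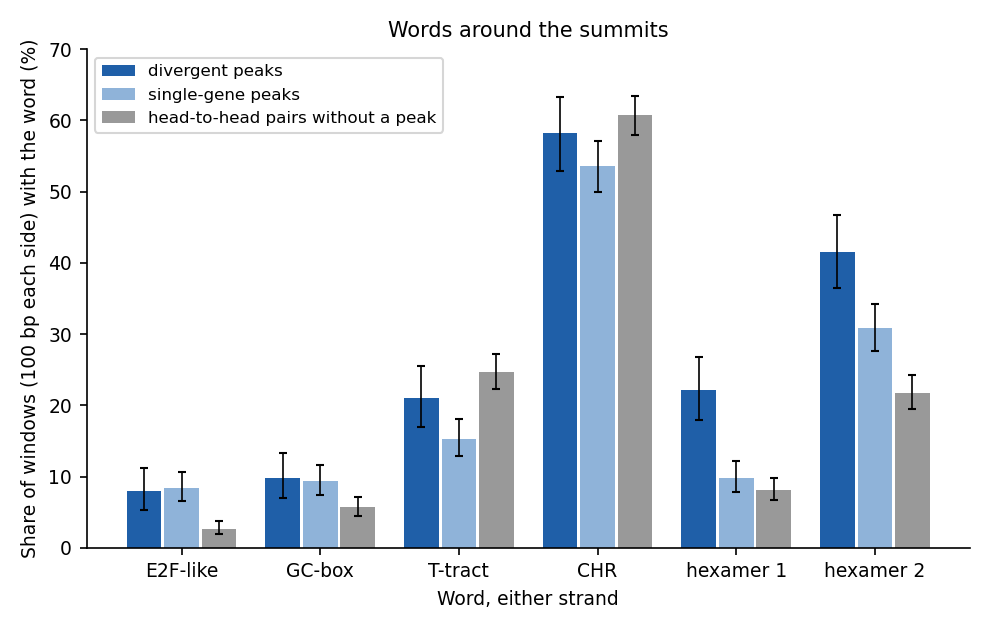
Share of windows of 100 bp on each side, in percent, with each word on either strand, at divergent summits (dark), single-gene summits (light) and between the 5' ends of head-to-head pairs without a peak (grey); error bars are 95% exact binomial intervals, hexamer 1 is ACCGTA and hexamer 2 is AAATCG. Hexamer 1 has a share of 22.1% at divergent summits, against 9.85% and 8.13% in the other windows, while the CHR is above 50% in all 3.

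AAATCG was picked by the same kind of rule, as the hexamer with the largest excess over pairs without a peak, and it lay in 41.5% of divergent windows (36.4 to 46.8), 30.8% of single-gene windows (27.6 to 34.2) and 21.8% of pairs without a peak. The word TATAAA, which resembles a TATA box, had the largest deficit against pairs without a peak, with 11.7% at divergent peaks, 15.2% at single-gene peaks and 30.2% in those pairs. GAGAGA had the largest deficit against single-gene peaks, 21.3% at divergent peaks against 35.3%, with 11.8% in pairs without a peak. Median GC content was 38.8% at divergent summits, 40.8% at single-gene summits and 32.8% in pairs without a peak. Windows of peaks are centred on summits and those of pairs between the 5' ends. With the divergent windows centred between the 5' ends as well, median GC content was 35.8% and the AAATCG share 39.1%. The part of base composition in these word shares was not tested.

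T-tracts were in 77 divergent windows (21.0%, 16.98 to 25.6), 15.3% of single-gene windows (12.9 to 18.1) and 24.7% of pairs without a peak. Between the 5' ends of divergent pairs, 121 of 171 tracts were runs of T on the coding strand of the gene on their side (70.8%, 63.3 to 77.5), and in pairs without a peak 523 of 884 were (59.2%, 55.8 to 62.4). In divergent pairs the count was 69 of 100 on the plus-gene side and 52 of 71 on the minus-gene side. A tract here is a run of 8 or more, and its side is the nearer of both 5' ends. Divergent peaks with a T-tract in the window had a median pooled signal of 79.7, and those without one 97.5.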

How the data were processed

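The deposited files are peak lists in ce11, without reads. Per the deposited file descriptions, the authors called peaks on each replicate and on both pooled, against a control alignment, and derived the optimal IDR set from these lists. Neither the aligner, the caller, the IDR threshold nor the depth is given in the sources used here, so the precision behind a signal is unknown. The labels give a fragment size of 150 to 350 bp.

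The signal of a call is the authors' deposited peak score, whose scale is not stated; it was compared only within a list. The −log10 q-value deposited by the authors served only to count calls under 0.05. Replicate calls were matched by the nearest summit within 100 bp.

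Genes and 5' ends (protein-coding transcripts) came from Ensembl 115 on WBcel235, and sequence from RefSeq. Each distance uses the nearest annotated 5' end on that strand, while the 1661 pairs use the 5'-most ends. Gene lists were set by gene symbol and are incomplete. Summaries used Python 3.11.15, pandas 2.3.3 and scipy 1.17.1, with exact Clopper-Pearson intervals. Scripts were tested on simulated peaks and sequences.

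With 1 group of 2 replicates no test between samples was possible, and none was run over peaks. The members, lists, words and named sites were chosen with earlier results of these data known. Named were the 20 strongest sites, the strongest per autosome, up to 3 per list, all DREAM and synMuv sites, sites with both genes listed, the weakest, the extremes of separation and of replicate ratio, and those beside the 500 bp limit. One site that this rule names is not reported here. The sites rbc-2/ndua-8 and ify-1/rpl-22, the other distances and word counts at single sites were chosen after their values were seen.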

Additional observations from a re-analysis of the deposited data

How the results depend on the processing

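No paired analysis was possible because the series has 1 group. Of 58 alternatives, 34 kept the value, 24 moved it and 0 reversed it. Kept means within its interval, a count within 1.5 times, or the signal ratio within its SD of 0.00647 over both replicates. That SD rests on 2 ratios from the same peaks, 1.13 and 1.14, and does not measure the uncertainty of the pooled ratio of 1.16. With a 250 bp window the divergent peaks numbered 164, their share of promoter peaks was 19.1% and the signal ratio 1.09; with 1000 bp the share was 36.8% and the ratio 1.17. In the stronger part of the set, 226 peaks were divergent, with a share of 35.7%, a ratio of 1.01 and 14.6% narrow calls (narrower than the usual 324 bp) in place of 9.02%. When each gene kept only its 5'-most end, the ratio was 1.145. Over the lists of single replicates it ranged from 1.145 to 1.165, the number of divergent peaks from 351 to 356, their share from 30.4% to 31.7%, pairs with a summit from 22.46% to 22.52%, narrow calls from 2.28% to 8.43%, ACCGTA from 21.4% to 21.9%, and ribosomal sites with the summit nearer the partner from 67.9% to 74.1%, against 75.9% in the full set.

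Calls in both replicates were 87.4% with summits within 50 bp, 99.45% within 200 bp and 87.2% with q-values under 0.05. Pairs up to 2000 bp apart had a summit in 21.4%. Windows of 50 bp on each side held E2F-like sites at 4.92%, the CHR at 30.9%, the GC-box at 5.74%, the T-tract at 5.46% and ACCGTA at 17.2% of divergent peaks, and windows of 200 bp on each side held the CHR at 80.6% and the T-tract at 34.97%. The alternatives for ACCGTA and for ribosomal sites were added after the data were seen. Depth is unknown, so weak or missing calls may be limited by it; that was not tested.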

Other observations

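In the list of either replicate alone, most divergent pairs were found again. Among as many top calls of replicate 1, 329 of 365 gene pairs recurred, and among those of replicate 2, 328 did. In those lists, genes of head-to-head pairs had a summit within 500 bp at 22.9% and 23.0%, against 5.17% and 5.02% of other genes.

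The 183 stronger divergent peaks had calls in both replicates without exception, and 33 were narrow calls. The 183 weaker ones had calls in both replicates at 174 peaks and no narrow call. Among the weaker ones the replicates' signals had a Spearman correlation of -0.0107, and among the stronger ones 0.745; the split is by pooled signal, which draws on both replicates, and limits the range in the weaker part.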
